A study of Mus musculus with 2 samples.

Results

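De novo lipogenesis is the route by which a cell builds fatty acids from acetyl-CoA and stores them as triglyceride. The genes described here are 10 enzymes and regulators of that route, Acly, Acaca, Acacb, Fasn, Elovl6, Scd1, Gpam, Dgat2, Srebf1 and Mlxipl, taken by symbol from the 53700 features counted in single nuclei of mouse quadriceps muscle. Each symbol matched 1 feature in both libraries. The genes were picked with earlier results of these libraries in view, in part for their high counts in adipocyte nuclei of the knockout, so their levels are given as descriptions and carry no test.

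The PTRF KO library came from mice without Cavin1 (older symbol Ptrf), which encodes a coat protein of caveolae, the small plasma membrane pits that are most abundant in adipocytes, muscle and endothelium. The WT library came from mice with the gene. Both were C57BL/6N, 3 months old, and the tissue was quadriceps, a thigh muscle made mainly of fast fibres. Each genotype is represented by a single library. Differences between PTRF KO and WT therefore could not be set against a spread between animals, and no test between genotypes was made. The sources used here do not state how many mice went into a library, or their sex.

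In the pathway, ATP citrate lyase (Acly) splits cytosolic citrate to acetyl-CoA. Acetyl-CoA carboxylase 1 (Acaca) turns that into malonyl-CoA for synthesis, while acetyl-CoA carboxylase 2 (Acacb), which sits at the mitochondrial surface, makes malonyl-CoA that restrains fatty acid oxidation and is the main isoform of muscle. Fatty acid synthase (Fasn) builds palmitate, Elovl6 lengthens it and stearoyl-CoA desaturase 1 (Scd1) adds a double bond. Mitochondrial glycerol-3-phosphate acyltransferase (Gpam) starts triglyceride assembly and diacylglycerol acyltransferase 2 (Dgat2) finishes it. Srebf1 and Mlxipl encode SREBP1 and ChREBP, transcription factors that respond to insulin and to glucose metabolites and that bind sterol response elements and E-box-like carbohydrate response elements at genes of this route. White adipose tissue and liver are the classical sites of lipogenesis, and muscle fibres do little of it.

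The files held 7766 barcodes and 16052317 UMIs (unique molecular identifiers, 1 per captured transcript) for PTRF KO and 10280 barcodes and 9746980 UMIs for WT. After nuclei with under 200 detected genes or over 5% mitochondrially encoded UMIs were left out, 7762 PTRF KO nuclei with a median of 1562 UMIs and 10272 WT nuclei with a median of 703 UMIs remained. Cavin1 itself had 2 UMIs in the PTRF KO library (0.125 CPM, UMIs per 1000000 UMIs of the group) and 75 in the WT library (7.70 CPM). The libraries shared 24 barcodes. Transcripts of both sexes were present in the PTRF KO library, where, outside the adipocyte nuclei defined next, 899 nuclei had Xist UMIs with no UMI of the Y-linked Ddx3y, Uty, Kdm5d or Eif2s3y (Xist-marked) and 3035 had the reverse (Y-marked). In WT 2 such nuclei were Xist-marked and 2678 Y-marked. The main results in gated and myonuclei-like nuclei are also given below for Y-marked nuclei alone.

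Adipocyte nuclei were taken as those with at least 3 UMIs summed over Adipoq, Plin1, Lipe, Pparg, Acvr1c and Adrb3, here called gated nuclei. There were 948 in PTRF KO (12.2% of nuclei, exact 95% binomial interval 11.5 to 12.96%) and 114 in WT (1.11%, 0.916 to 1.33%). All intervals cover counting error only. The gate depends on depth, since a nucleus with more UMIs reaches 3 more easily, and the median gated nucleus held 1564.5 UMIs in PTRF KO and 945 in WT. When nuclei were clustered without the 10 genes, 909 of the 948 gated PTRF KO nuclei (95.9%) and 110 of the 114 gated WT nuclei (96.5%) fell in adipocyte-like clusters, but not in the same one: 908 PTRF KO nuclei were in cluster 5, while 92 WT nuclei were in cluster 13 and 18 in cluster 5. These clusters were built and named with adipocyte genes that include the gate genes, so their overlap with the gate is no independent check, and cluster 13, with a marker score of 2.79, lay close to the naming threshold of 2.5. Another 8 adipocyte genes that the gate did not use (Cidec, Plin4, Lep, Cfd, Fabp4, Retn, Car3 and Tshr) were all detected, summing to 7270 CPM in gated PTRF KO nuclei and 5199 CPM in gated WT nuclei, against 141 and 172 CPM in the myonuclei-like nuclei of PTRF KO and WT; in Y-marked gated nuclei the sum was 5113 CPM in PTRF KO and 4217 CPM in WT. Gated nuclei also carried muscle transcripts: 10 of 10 myonuclear markers were present, at 10678 CPM in PTRF KO and 26453 CPM in WT, with Ttn alone at 7643 and 19557 CPM. Fibro-adipogenic markers summed to 371 CPM in PTRF KO (10 of 10 detected) and 430 CPM in WT (7 of 10, Pdgfra, Lum and Fbn1 at 0). The part of the muscle transcripts in the differences below was not tested.

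Promoter sequence is shown for 3 of the members whose 250 bases upstream of a RefSeq start (GRCm38.p6) hold letters that the pathway's regulators are known to use and lie outside annotated exons, to let a reader compare them. Windows of Srebf1 and Gpam that also meet this description are not shown. Capitals mark, on either strand, CACGTG (the E-box core), CCAAT (the NF-Y box), GGGCGG (the Sp1 box) and TCACNCCAC (a sterol response element form). The Fasn window on the minus strand (chr11:120824548-120824797) holds 3 CCAAT boxes, 2 of which, on opposite strands, overlap. The Acly window on the minus strand (chr11:100528001-100528250) holds 4 GGGCGG boxes. Mlxipl has 2 RefSeq starts on the plus strand: the upstream window (chr5:135089640-135089889) holds 1 CACGTG, 1 CCAAT and 2 GGGCGG, and the window of the inner start (chr5:135106641-135106890) holds 1 TCACNCCAC.
Fasn: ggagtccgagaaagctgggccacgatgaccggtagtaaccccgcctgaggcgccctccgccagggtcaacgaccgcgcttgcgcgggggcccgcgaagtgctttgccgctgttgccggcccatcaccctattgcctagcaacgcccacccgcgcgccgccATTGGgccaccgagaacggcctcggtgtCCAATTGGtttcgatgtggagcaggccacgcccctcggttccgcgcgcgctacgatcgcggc
Acly: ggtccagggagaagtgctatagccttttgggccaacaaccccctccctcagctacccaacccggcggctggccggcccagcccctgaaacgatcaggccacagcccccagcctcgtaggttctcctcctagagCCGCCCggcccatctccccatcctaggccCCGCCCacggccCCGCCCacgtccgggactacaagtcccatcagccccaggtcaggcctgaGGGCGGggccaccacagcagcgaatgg
Mlxipl, upstream start: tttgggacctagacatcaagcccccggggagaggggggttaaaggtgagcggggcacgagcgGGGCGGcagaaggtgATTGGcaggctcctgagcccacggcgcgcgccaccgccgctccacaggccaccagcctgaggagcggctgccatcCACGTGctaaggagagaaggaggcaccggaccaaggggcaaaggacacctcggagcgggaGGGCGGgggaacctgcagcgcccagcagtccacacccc
Mlxipl, inner start: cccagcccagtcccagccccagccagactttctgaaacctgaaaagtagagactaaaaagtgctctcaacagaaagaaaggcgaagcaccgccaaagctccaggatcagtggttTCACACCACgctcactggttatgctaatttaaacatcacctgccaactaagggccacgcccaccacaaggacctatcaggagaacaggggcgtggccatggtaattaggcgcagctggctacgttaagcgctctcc
Over the 12 windows of 8 members in the RefSeq table, CCAAT was found in 6, GGGCGG in 5, CACGTG in 1 and TCACNCCAC in 1. Among 32851 windows of the same length in that table, 33.8% held CCAAT, 32.7% GGGCGG, 6.02% CACGTG and 1.05% TCACNCCAC. A match describes the letters and is not evidence of binding, and no binding was measured.

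In gated nuclei the 10 genes together made up 9552 CPM in PTRF KO (18631 UMIs, 95% Poisson interval 9415 to 9690) and 2048 CPM in WT (286 UMIs, 1818 to 2300), a ratio of 4.66 (exact conditional interval 4.15 to 5.26; log2 2.22). Acaca, Fasn, Elovl6 and Acly, which lead from citrate to elongated fatty acid, had the largest ratios or lower bounds, and Dgat2, Srebf1 and Mlxipl lay within 2-fold. Of the 10 genes, 7 were past 2-fold higher in PTRF KO (Acly, Acaca, Acacb, Fasn, Elovl6, Scd1 and Gpam) and none was past 2-fold lower; among the 8535 genes with at least 20 UMIs over both libraries, 17.5% were past 2-fold higher and 12.3% lower. With a group at 0 UMIs set at the floor of 3, the 7 genes were still past 2-fold higher, and the share of all genes was 11.4%. The median log2 ratio was 1.99 over the 10 genes and 0.07 over all 8535. The genes were chosen partly on this contrast, so nothing is read from that count.

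**Figure D1:**
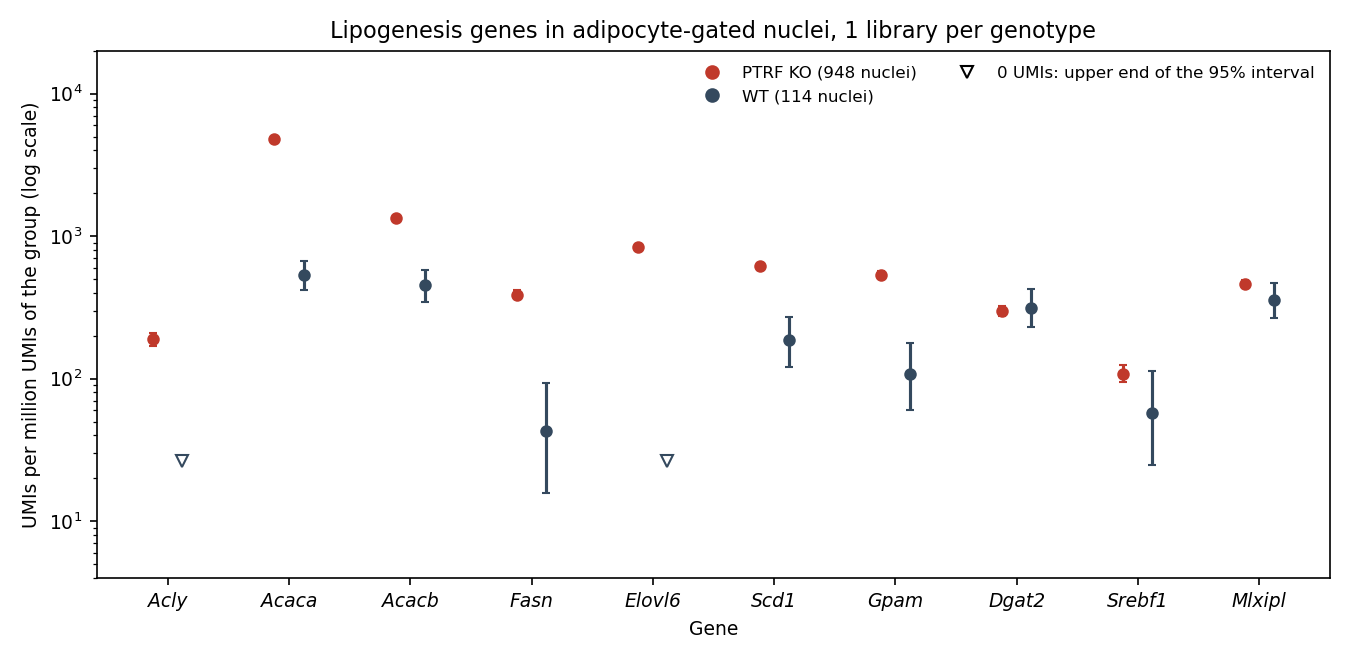
Level of each of the 10 genes in gated nuclei, in CPM on a log axis, for PTRF KO (red, 948 nuclei) and WT (dark blue, 114 nuclei), 1 library each, with exact 95% Poisson intervals and open triangles at the upper bound where no UMI was seen. Elovl6 and Acly had no WT UMI, while the intervals of Dgat2, Srebf1 and Mlxipl overlap between the libraries.

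The enzyme that makes cytosolic acetyl-CoA from citrate was not detected in gated WT nuclei. Acly (chromosome 11, 100476353 to 100528000, minus strand) had 368 UMIs in PTRF KO (189 CPM, 170 to 209) and 0 in WT (upper bound 26.4 CPM). Set against a floor of 3 UMIs over the WT group, it was at least 8.78-fold higher in PTRF KO. The carboxylase of synthesis had the most UMIs of the set: Acaca (chromosome 11, 84129672 to 84401651, plus strand) had 9320 UMIs in PTRF KO (4778 CPM, 4682 to 4876) and 74 in WT (530 CPM, 416 to 665), 9.02-fold higher (7.18 to 11.5). Its oxidation-linked relative differed less, since Acacb (chromosome 5, 114146535 to 114250761, plus strand) had 2607 UMIs in PTRF KO (1337 CPM, 1286 to 1389) and 63 in WT (451 CPM, 347 to 577), 2.96-fold higher (2.31 to 3.87). Acaca UMIs thus outnumbered Acacb UMIs in gated PTRF KO nuclei, and per kilobase of annotated gene span the level was 17.6 CPM for Acaca and 12.8 CPM for Acacb; in gated WT nuclei the order per kilobase was the other way, 1.95 CPM for Acaca and 4.33 CPM for Acacb.

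The synthase had few UMIs in gated WT nuclei and the elongase none. Fasn (chromosome 11, 120805846 to 120824547, minus strand; promoter printed above) had 756 UMIs in PTRF KO (388 CPM, 360 to 416) and 6 in WT (43.0 CPM, 15.8 to 93.5), 9.02-fold higher (4.13 to 24.7). Elovl6 (chromosome 3, 129532355 to 129638495, plus strand) had 1635 UMIs in PTRF KO (838 CPM, 798 to 880) and 0 in WT (upper bound 26.4 CPM), at least 39.0-fold higher. Elovl6 UMIs lay in 370 of 948 gated PTRF KO nuclei (39.0%), against 0.279% of PTRF KO and 0.310% of WT myonuclei-like nuclei at median depths of 1787 and 751 UMIs, and the highest single gated nucleus had 24.6 Elovl6 UMIs per 1000. The desaturase was present in both libraries: Scd1 (chromosome 19, 44394455 to 44407879, minus strand) had 1198 UMIs in PTRF KO (614 CPM, 580 to 650) and 26 in WT (186 CPM, 122 to 273), 3.30-fold higher (2.24 to 5.07). Per kilobase of gene span, Scd1 was the highest of the 10 in both libraries, at 45.7 CPM in PTRF KO and 13.9 CPM in WT. Its gene is the shortest of the 10, and division by a short span raises this value. Without that division Scd1 was below Acaca, Acacb and Elovl6 in gated PTRF KO nuclei.

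The first and the last acyltransferase of triglyceride assembly did not move together. Gpam (chromosome 19, 55067268 to 55127238, minus strand) had 1048 UMIs in PTRF KO (537 CPM, 505 to 571) and 15 in WT (107 CPM, 60.1 to 177), 5.00-fold higher (3.02 to 8.97). Dgat2 (chromosome 7, 99153658 to 99182719, minus strand) had 585 UMIs in PTRF KO (299.9 CPM, 276 to 325) and 44 in WT (315 CPM, 229 to 423), a log2 ratio of -0.09 (-0.51 to 0.41). With the gate set after thinning to 500 UMIs, which left 533 PTRF KO and 55 WT nuclei, that ratio was -1.05 (-1.83 to -0.10), past 2-fold lower; with at least 2 gate UMIs it was 0.08 and in Y-marked nuclei 0.27, so its sign was not settled. Per kilobase Dgat2 was at 10.3 CPM in PTRF KO and 10.8 CPM in WT, where Scd1 alone was higher.

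The transcription factors had smaller ratios than the 7 enzymes past 2-fold. Srebf1 (chromosome 11, 60199089 to 60222581, minus strand) had 211 UMIs in PTRF KO (108 CPM, 94.1 to 124) and 8 in WT (57.3 CPM, 24.7 to 113), a ratio of 1.89 with an interval of 0.941 to 4.43. Mlxipl (chromosome 5, 135089890 to 135138382, plus strand) had 903 UMIs in PTRF KO (463 CPM, 433 to 494) and 50 in WT (358 CPM, 266 to 472), a ratio of 1.29 (0.972 to 1.76). Both intervals include no difference, but with at least 2 gate UMIs in place of 3 the log2 ratio was 1.26 (0.34 to 2.58) for Srebf1 and 0.54 (0.18 to 0.94) for Mlxipl. The counts do not separate transcript forms of either gene. SREBP1 and ChREBP are also set by protein processing and entry into the nucleus, which UMIs do not measure.

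The difference was also present on another scale and without the gene with most UMIs. Per UMI of the 6 gate genes in place of all UMIs, the log2 ratio of the sum was 1.98 and 7 genes were past 2-fold higher; members carried in with muscle RNA still count in that sum. Per all UMIs and without Acaca, the log2 ratio of the sum was 1.65. The gate genes themselves had CPM of 5496 in PTRF KO and 4662 in WT, and differed one by one: Pparg, the master regulator of adipocytes, had a log2 ratio of 0.99, Adipoq of 0.49, Acvr1c of 0.41, Plin1 of -0.20, Lipe of -0.31 and the beta-3 adrenergic receptor Adrb3 of -0.95. In the shared cluster 5, the 10 genes summed to 9943 CPM over 908 PTRF KO nuclei and 2119 CPM over 18 WT nuclei, and Acaca was at 4989 CPM in PTRF KO and 674 CPM in WT. Adipocyte-cluster nuclei that missed the gate had the same ordering, at 7035 CPM over 177 PTRF KO nuclei and 1516 CPM over 140 WT nuclei. Across the gate threshold, the sum in PTRF KO was 1225 CPM in nuclei with 1 gate UMI, 3388 CPM with 2, 6926 CPM with 3 and 7198 CPM with 4; in WT it was 1168, 1134, 2424 and 1707 CPM at the same counts.

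Sex-linked transcripts divided the gated nuclei unevenly. In PTRF KO 628 gated nuclei were Xist-marked, 68 Y-marked, 86 had both and 166 neither; in WT none had Xist, 43 were Y-marked and 71 had neither. Among Y-marked gated nuclei, the sum was 9513 CPM in PTRF KO and 1791 CPM in WT (log2 2.40, 2.15 to 2.68), so the difference was as large when Xist-marked nuclei were left out. In that comparison 7 of 10 genes were past 2-fold higher and none lower, against 19.2% higher and 8.11% lower of 2811 genes, but they were not the same 7: Scd1 was 1.89-fold higher and Srebf1 3.51-fold, on 22 UMIs in PTRF KO and 2 in WT. Elovl6 had 201 UMIs in the 68 Y-marked PTRF KO nuclei (925 CPM) and 0 in the 43 Y-marked WT nuclei. Myonuclear markers summed to 11345 CPM in Y-marked gated PTRF KO nuclei and 33489 CPM in those of WT. Their part in this comparison was not tested.

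Within the PTRF KO library, the 10 genes summed to 10468 CPM in Xist-marked and 9513 CPM in Y-marked gated nuclei (log2 0.14), and single genes differed in both directions. Acacb was lower in Xist-marked nuclei, at 1216 CPM against 2458 CPM in Y-marked nuclei (log2 -1.02). Fasn was higher in Xist-marked nuclei, at 464 CPM against 212 CPM (log2 1.12), as were Gpam at 606 CPM against 327 CPM and Dgat2 at 350.0 CPM against 198 CPM. Elovl6 was at 994 CPM in Xist-marked and 925 CPM in Y-marked nuclei. Past 2-fold, 1 gene was higher and 1 lower in Xist-marked nuclei, beside 10.5% higher and 7.26% lower of 7275 genes. Ttn moved with these marks, at 3430 CPM in Xist-marked and 8464 CPM in Y-marked gated PTRF KO nuclei, and its part in the differences was not tested. The nuclei are from 1 library, so sex cannot be told apart from the individual mice.

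**Figure D2:**
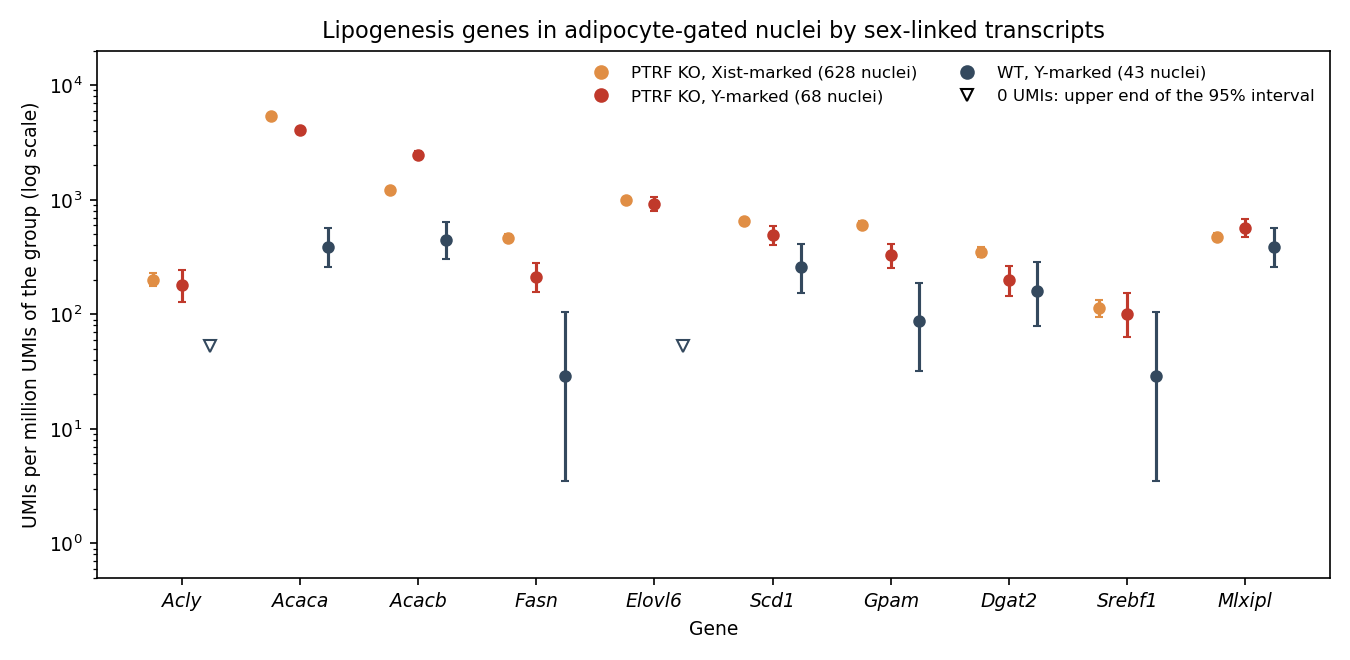
The 10 genes in gated nuclei split by sex-linked transcripts: Xist-marked PTRF KO (orange, 628 nuclei), Y-marked PTRF KO (red, 68 nuclei) and Y-marked WT (dark blue, 43 nuclei), in CPM on a log axis with exact 95% Poisson intervals. Both PTRF KO sets lie above Y-marked WT for Acaca, Acacb, Fasn and Elovl6, and Acacb is higher in the Y-marked than in the Xist-marked PTRF KO nuclei.

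Several of the genes were detected in the same gated nucleus more often in PTRF KO. Such a share rises with the level of each gene alone, and the genes were chosen partly on that level. Whether they went together beyond their single levels was not tested between the libraries. With every nucleus thinned to 500 UMIs, 687 of 948 gated PTRF KO nuclei (72.5%, 69.5 to 75.3%) had UMIs of at least 2 of the 10 genes, against 26 of 109 gated WT nuclei (23.9%, 16.2 to 33.0%); 5 WT nuclei were too shallow to thin. At least 3 genes were seen in 48.8% of PTRF KO and 0.917% of WT gated nuclei, and at least 5 in 8.76% of PTRF KO and 0 of 109 WT nuclei. Other cell types give the background at the same depth: at least 2 genes were seen in 6.11% of PTRF KO and 7.24% of WT myonuclei-like nuclei, in 3.95% and 4.81% of fibro-adipogenic-like nuclei of PTRF KO and WT, and in 3.54% and 4.76% of their macrophage-like nuclei. Median depths before thinning were 1787 and 751 UMIs in the myonuclei-like, 898 and 636 in the fibro-adipogenic-like and 960 and 671.5 in the macrophage-like nuclei of PTRF KO and WT. Before thinning, the shares in gated nuclei were 92.6% in PTRF KO and 55.3% in WT. Among Y-marked gated nuclei at 500 UMIs they were 61.8% of 68 in PTRF KO and 17.5% of 40 in WT.

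**Figure D3:**
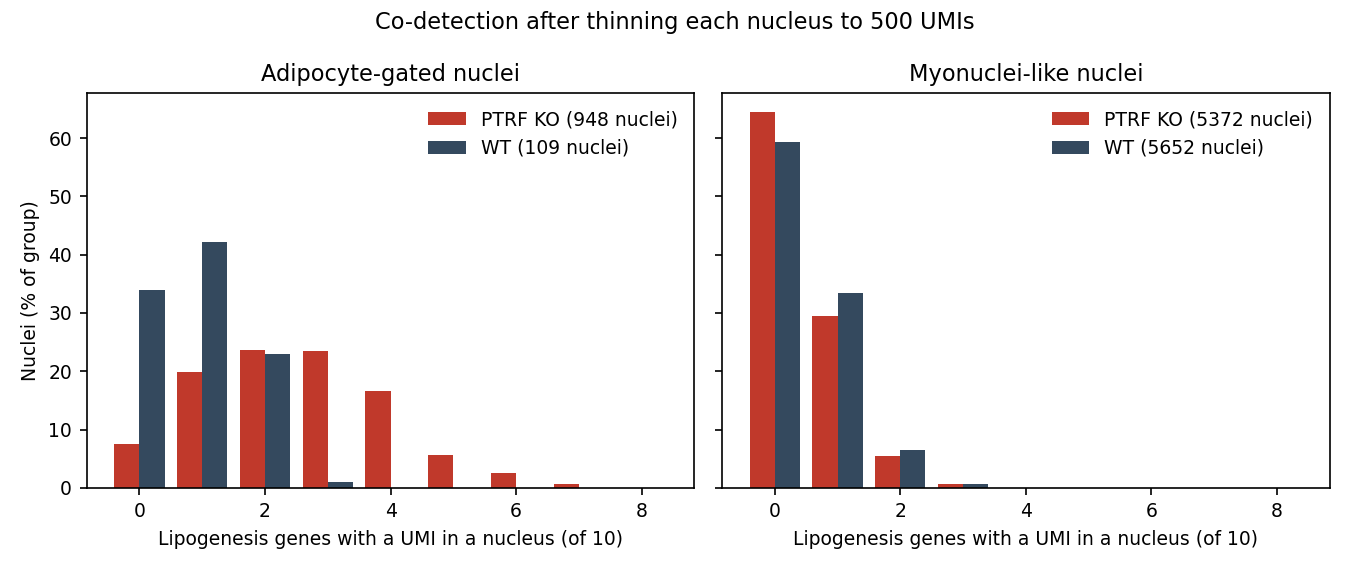
Share of nuclei (%) by the number of the 10 genes with a UMI after thinning to 500 UMIs, for gated nuclei (left) and myonuclei-like nuclei (right), PTRF KO in red and WT in dark blue. Gated PTRF KO nuclei spread to 5 and more genes, gated WT nuclei stay at 3 or fewer, and the myonuclei-like bars of the libraries lie close together. The number of genes seen rises with the level of each gene alone.

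The spread among gated PTRF KO nuclei was wide. The 10 genes gave a median of 8.55 UMIs per 1000 UMIs of a nucleus in PTRF KO (2.10 at the low end and 19.9 at the high end when the outermost 10% on each side are left out, highest 49.9, 17 nuclei at 0) and 2.12 in WT (highest 8.15, 16 nuclei at 0). At 500 UMIs, Acaca was seen in 74.8% of PTRF KO and 25.7% of WT gated nuclei, Acacb in 38.4% and 18.3%, Fasn in 19.7% and 2.75%, and Dgat2 in 13.7% and 11.9% of gated PTRF KO and WT nuclei. In PTRF KO nuclei Fasn was seen in 23.4% of those with Acaca and 8.79% of those without it, and Elovl6 in 25.0% and 10.5%. Dgat2 did not divide the nuclei that way, since Fasn was seen in 20.0% of nuclei with Dgat2 and 19.7% of those without.

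Across the 948 gated PTRF KO nuclei, Pearson's r between members (log of 1 plus UMIs per 1000) was highest for Acaca with Fasn at 0.38 and for Acaca with Elovl6 at 0.37. It was 0.29 for Acaca with Acly and -0.05 for Dgat2 with Srebf1. The nuclei share a library, a depth gradient and sparse counts, so these are descriptions. Among 3147 genes seen in at least 10% of these nuclei, those whose level went most with the sum were Immp2l (0.39), Ntrk3 (0.35) and Tspan18 (0.32), followed by Ppp2r5a, Acsl1, Chpt1, Prkar2b, Gbe1, Prkce, Sik2, A530053G22Rik and Acss2 (0.29). Acsl1 activates fatty acids to acyl-CoA, Acss2 makes acetyl-CoA from acetate and Prkar2b is a regulatory subunit of protein kinase A. In the 114 gated WT nuclei r of these 12 genes with the sum ran from -0.08 (Prkar2b) to 0.19 (Ppp2r5a), and was 0.09 for Immp2l. The lowest r in PTRF KO was -0.41, for Cdh13. Acaca gave 9320 of the 18631 UMIs of the sum in PTRF KO, so the ranking leans on that gene.

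Gated nuclei were then set against all other nuclei of their library. These others include the adipocyte-cluster nuclei below the gate. In PTRF KO those held 96 of the 153 Elovl6 and 73 of the 139 Fasn UMIs outside gated nuclei, and in WT 2 of 50 and 2 of 11. In PTRF KO all 10 genes were past 2-fold higher in gated nuclei than in all other nuclei, from 2.65-fold for Mlxipl to 77.2-fold for Elovl6, and the sum was 9552 against 930 CPM (log2 3.36); 26.8% of 14113 genes were past 2-fold higher in that contrast. In WT the sum was 2048 CPM in gated and 1064 CPM in other nuclei (log2 0.95). Of the 9 members with at least 20 UMIs there, 4 were past 2-fold higher in gated WT nuclei (Acaca, Scd1, Dgat2 and Srebf1), beside 32.6% of 14599 genes. With 0.5 UMI added, 1 was past 2-fold lower, beside 9.91%, and with the floor of 3 UMIs none was, beside 4.88%. Acly had 0 UMIs in gated WT nuclei and 12.9 CPM elsewhere, a level under the 21.5 CPM that 3 UMIs stand for, so no fold is given. Fasn, with 6 UMIs in gated and 11 in other WT nuclei, was below 20 UMIs, and its ratio was 37.5 (11.4 to 111). Acacb and Gpam had no excess in gated WT nuclei, at 451 against 517 CPM and 107 against 112 CPM in other WT nuclei.

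**Figure D4:**
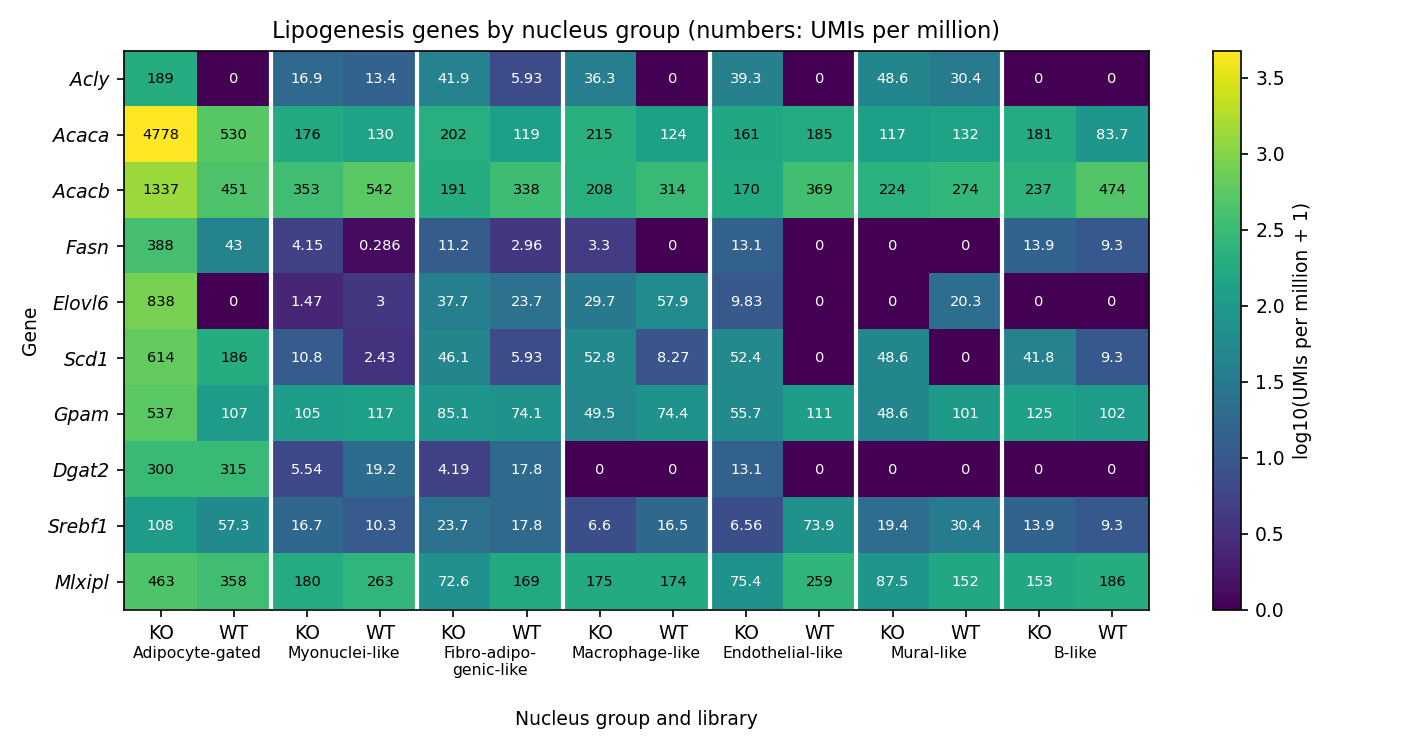
CPM of the 10 genes down the page in 7 nucleus groups, PTRF KO left and WT right in each pair, with colour giving log10 of the level plus 1. The highest cells are Acaca and Acacb in gated PTRF KO nuclei, Acacb, Mlxipl, Acaca and Gpam are present in every group, and Elovl6, Fasn, Scd1, Dgat2 and Acly are at most 57.9 CPM in the 6 groups other than gated nuclei.

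Myonuclei-like nuclei numbered 5372 in PTRF KO and 6777 in WT, and most of their UMIs of the 10 genes were of Acacb, Mlxipl, Acaca and Gpam. Their sum of the 10 genes was 869 CPM in PTRF KO and 1101 CPM in WT (log2 -0.34, -0.38 to -0.30), while Ttn was at 49474 CPM and 69235 CPM in the same nuclei of PTRF KO and WT. Of the 10 genes, 2 were past 2-fold higher (Fasn and Scd1) and 2 lower (Elovl6 and Dgat2), beside 4.92% higher and 21.2% lower of 14620 genes. Acacb, the isoform of muscle, was at 353 CPM in PTRF KO and 542 CPM in WT (log2 -0.62, -0.68 to -0.56). Mlxipl was at 180 CPM in PTRF KO and 263 CPM in WT (log2 -0.55), and Gpam at 105 CPM in PTRF KO and 117 CPM in WT (log2 -0.16). Acaca was at 176 CPM in PTRF KO and 130 CPM in WT (log2 0.44, 0.32 to 0.55).

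Fasn, Scd1, Elovl6 and Dgat2 were scarce in myonuclei-like nuclei of both libraries. Most of their UMIs lay in gated nuclei in PTRF KO, but outside gated nuclei in WT. Adipocyte-cluster nuclei below the gate are among those outside it. In WT they held 11 of the 35 Scd1 and 2 of the 11 Fasn UMIs outside gated nuclei. For Elovl6 they held 2 of 50 and for Dgat2 28 of 189. Fasn had 51 UMIs in PTRF KO (4.15 CPM) and 2 in WT (0.286 CPM), a ratio of 14.5 with an interval of 3.82 to 123. Scd1 had 133 UMIs in PTRF KO (10.8 CPM) and 17 in WT (2.43 CPM), 4.46-fold higher (2.68 to 7.88). Among Y-marked nuclei the ratio was 9.76 for Fasn (1.60 to 401, on 25 UMIs in PTRF KO and 1 in WT) and 3.07 for Scd1 (1.39 to 7.99). The PTRF KO library also held more gated nuclei, with Fasn at 388 CPM and Scd1 at 614 CPM, and the part of free RNA from them was not tested. Elovl6, at 838 CPM in the same gated nuclei, had 18 UMIs in PTRF KO myonuclei-like nuclei (1.47 CPM) and 21 in WT (3.00 CPM), and among Y-marked ones 8 and 4 UMIs, a log2 ratio of -0.44 that was not past 2-fold. Dgat2 was lower, with 68 UMIs in PTRF KO (5.54 CPM) and 134 in WT (19.2 CPM), a log2 ratio of -1.79 (-2.23 to -1.36).

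Several of these values differed between fibre types and sex marks. By the myosin gene with most UMIs in a nucleus, Dgat2 was at 1.82 CPM in Myh4, 13.5 in Myh1 and 40.5 in Myh2 nuclei of PTRF KO, and at 8.43, 41.8 and 46.1 CPM in those of WT. Acacb was higher along the same order, at 299, 580 and 646 CPM in PTRF KO and 488, 648 and 676 CPM in WT, with intervals that overlap between the libraries in Myh1 and Myh2 nuclei but not in Myh4 nuclei. Mlxipl was at 159, 250 and 321 CPM in PTRF KO and 225, 305 and 397 CPM in WT. Myh4 marks the fastest fibres, and 4212 of the 5372 PTRF KO and 4251 of the 6777 WT myonuclei-like nuclei led with it. In PTRF KO, Xist-marked myonuclei-like nuclei had more Gpam than Y-marked ones (219 against 81.8 CPM), more Dgat2 (17.3 against 3.66 CPM) and more Acacb (463 against 327 CPM). They also had more Mlxipl (256 against 167 CPM), Scd1 (19.2 against 7.20 CPM) and Fasn (9.13 against 3.27 CPM). Y-marked nuclei alone gave a log2 ratio of PTRF KO over WT of -0.64 for Gpam, -2.34 for Dgat2 and -0.73 for Acacb, and a Dgat2 level of 3.66 CPM in PTRF KO and 18.8 CPM in WT.

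**Figure D5:**
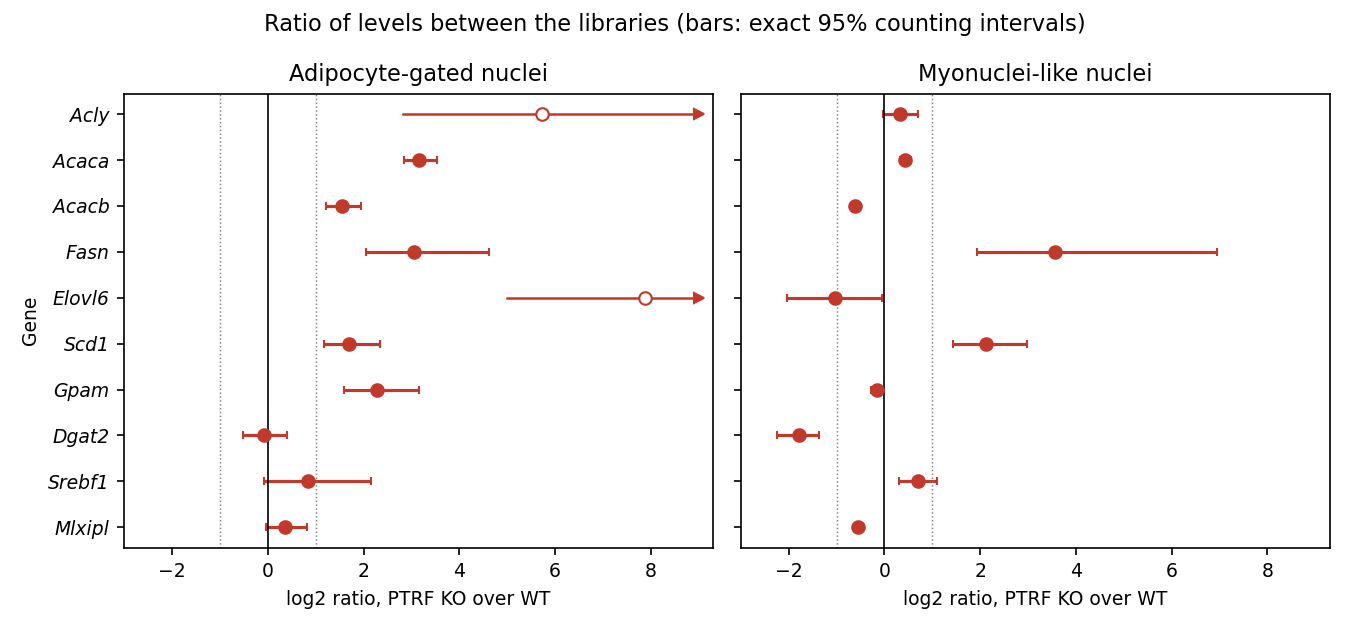
Log2 ratio of PTRF KO over WT for each gene in gated nuclei (left) and myonuclei-like nuclei (right), with exact 95% counting intervals; dotted lines mark 2-fold, and open points with arrows are genes with 0 WT UMIs, whose upper bound is open. Acacb, Elovl6, Gpam and Mlxipl lie right of 0 in gated nuclei and left of 0 in myonuclei-like nuclei, with an interval that includes 0 for Mlxipl in gated nuclei.

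Fibro-adipogenic-like nuclei (582 in PTRF KO, 389 in WT), whose cell type, a stromal cell, can become an adipocyte, had a sum of 716 CPM in PTRF KO and 774 CPM in WT. Ttn was at 17844 CPM in PTRF KO and 42802 CPM in WT there, and its part was not tested. Of 8 members with at least 20 UMIs, 2 were past 2-fold higher and 1 lower, beside 14.4% and 6.54% of 6440 genes. Acly had 30 UMIs in PTRF KO (41.9 CPM) and 2 in WT (5.93 CPM), a ratio of 7.06 (1.79 to 61.0), and Scd1 had 33 in PTRF KO (46.1 CPM) and 2 in WT (5.93 CPM), a ratio of 7.77 (1.99 to 66.8). Mlxipl was lower, at 72.6 CPM in PTRF KO and 169 CPM in WT (log2 -1.22). Elovl6 had 27 UMIs in PTRF KO (37.7 CPM, 24.8 to 54.8) and 8 in WT (23.7 CPM, 10.24 to 46.7). Scd1 had a like level in every named non-muscle group of the PTRF KO library, 41.8 CPM in B-like to 52.8 CPM in macrophage-like nuclei, and 0 to 9.298 CPM in the same groups of WT. Acly was likewise at 41.9 CPM in fibro-adipogenic-like, 36.3 CPM in macrophage-like, 39.3 CPM in endothelial-like and 48.6 CPM in mural-like nuclei of PTRF KO, so neither gene's level stood apart in fibro-adipogenic-like nuclei, and the part of free RNA was not tested. Apart from gated nuclei and those of adipocyte-like clusters, Elovl6 in the PTRF KO library was highest in fibro-adipogenic-like and macrophage-like nuclei (29.7 CPM, 13.6 to 56.4), whose intervals overlap, and its interval in myonuclei-like nuclei (0.869 to 2.32 CPM) lay below both.

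In macrophage-like nuclei (198 in PTRF KO, 136 in WT) only Acaca, Acacb, Gpam and Mlxipl had at least 20 UMIs, and none was past 2-fold in either direction, beside 12.9% higher and 4.81% lower of 3720 genes. Dgat2 was at 0 UMIs in macrophage-like, mural-like and B-like nuclei of both libraries, and Elovl6 and Acly at 0 in B-like nuclei of both (58 in PTRF KO, 130 in WT). For B-like nuclei 0 UMIs allow up to 51.4 CPM in PTRF KO and 34.3 CPM in WT, so low levels were not detectable at this depth. Endothelial-like nuclei (240 in PTRF KO, 35 in WT) gave 182 UMIs of the 10 genes in PTRF KO and 27 in WT, or 597 and 997 CPM.

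Other genes of the route were taken from lists of textbook pathways. The lists were chosen with earlier results of these data known, so nothing is read from their counts. They are given for gated nuclei beside 11.4% of all genes higher and 12.3% lower. A gene at 0 UMIs in 1 library was counted only if it passed 2-fold at the floor of 3. Of 13 genes that supply citrate, acetyl-CoA and NADPH, all were measured, 7 were past 2-fold higher and 0 lower, with a median log2 ratio of 1.09. Pyruvate carboxylase, Pcx, was at 1028 CPM in PTRF KO and 480 CPM in WT (log2 1.09), and Acss2 at 476 CPM in PTRF KO and 193 CPM in WT (log2 1.27). Transketolase, Tkt, of the pentose phosphate pathway, had the highest ratio, with 558 UMIs in PTRF KO and 6 in WT (log2 2.62), and Pgd of the same pathway the lowest (log2 -0.27, -1.35 to 1.33).

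Of 15 other elongases and desaturases only 6 had enough UMIs, 2 past 2-fold higher and 1 lower, with a median of 0.54. Hsd17b12, a reductase of the elongation cycle, was at 374 CPM in PTRF KO and 71.6 CPM in WT (log2 2.32), its partner dehydratase Hacd2 at 473 CPM in PTRF KO and 322 CPM in WT (log2 0.54), and Fads3 at 32.3 CPM in PTRF KO and 71.6 CPM in WT (log2 -1.21). Of 19 genes of triglyceride assembly, 16 were measured, 6 past 2-fold higher and 0 lower, with a median of 0.81 (0.79 with genes at 0 set at the floor). Acsl1 was at 3623 CPM in PTRF KO and 1626 CPM in WT (log2 1.15). Lpin1, a phosphatidate phosphatase, was at 384 CPM in PTRF KO and 480 CPM in WT (log2 -0.33), Agpat3 at 52.3 CPM in PTRF KO and 93.1 CPM in WT (log2 -0.88), and Agpat1 had 40 UMIs in PTRF KO and 0 in WT, which gives no fold because 40 UMIs in PTRF KO stand for less CPM than 3 in WT.

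Of 20 partners of SREBP, ChREBP and the liver X receptors, 16 were measured, 4 past 2-fold higher and 0 lower, with a median of 0.28 (0.16 with genes at 0 set at the floor). Thrsp (Spot 14), a lipogenic target of these factors, had 260 UMIs in PTRF KO and 1 in WT, a ratio of 18.6 (log2 interval 1.73 to 9.53). Nfyc, a subunit of the CCAAT-binding factor, was at 266 CPM in PTRF KO and 115 CPM in WT (log2 1.17), and Mlxip, the relative of ChREBP, at 107 CPM in PTRF KO and 193 CPM in WT (log2 -0.87). In Y-marked gated nuclei, where fewer list genes had 20 UMIs, 4 of 8 supply genes, 4 of 4 elongases and desaturases, 3 of 8 triglyceride assembly genes and 3 of 4 partners were past 2-fold higher and none lower, beside 19.2% of genes higher and 8.11% lower. Cholesterol synthesis, governed mainly by the SREBP2 protein, gave 4 measured genes of 12, with 0 past 2-fold in either direction and a median of 0.11; Hmgcs1 had a log2 ratio of -0.40 (-1.31 to 0.84) and Fdft1 of 0.72 (-0.67 to 3.24).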

How the data were processed

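Single-nucleus 3' libraries of quadriceps, 1 per genotype, were taken from the deposited raw UMI counts. Per the file headers Cell Ranger 6.0.0 wrote these counts, and STAR, Seurat 4.1.1, mm10 and GRCm38 stand in the submitters' processing notes. No source used here states the annotation release or whether introns and strand were counted. Counted introns weigh long genes, so some levels are also given per kilobase of gene span. Where genes are ranked by UMIs or CPM, gene length is not corrected for. Gm37391 lies within Acaca and Gm43072 within Elovl6 on the same strand, and Rai1 overlaps Srebf1 on the opposite strand, so their UMIs could be exchanged.

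Barcodes under 200 genes or over 5% mitochondrial UMIs were dropped. Doublets were not removed. Clusters (scanpy 1.11.5, leidenalg 0.10.2, 2000 variable genes without the 10 members, 30 components, 15 neighbours, resolution 1) were named from marker lists; the naming threshold (score 2.5) was set after seeing the data, and 108 PTRF KO and 2445 WT nuclei stayed unnamed. Gated nuclei were taken out of the clusters. Adipocyte-cluster nuclei below the gate were kept apart from the other named groups, but were counted among all other nuclei.

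Levels are UMIs per 1000000 UMIs of the group (CPM). Log2 ratios add 0.5 UMI to each sum, folds do not. Poisson, Clopper-Pearson and conditional binomial intervals are exact, at 95%, and cover counting error only. Genes needed 20 UMIs over both libraries to enter counts past 2-fold. A fold against 0 uses a floor of 3 UMIs over the group; list counts also require 2-fold at that floor, a rule chosen after seeing the data. Calculations were tested on simulated data. Gene positions come from GENCODE M21 (GRCm38) and promoters from RefSeq.

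Members and lists were chosen with earlier results of these data known. List genes named are the 2 with most UMIs and the highest and lowest ratio of each list in gated nuclei, of which 2 are not reported here; the 12 genes most like the members are ranked by Pearson r. Alternatives changed the gate, nucleus filters, total, thinning, clusters and sex marks.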

Additional observations from a re-analysis of the deposited data

Results flagged for a closer look

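For 3 of the 10 genes the ratio of PTRF KO over WT had opposite signs in gated and in myonuclei-like nuclei, with counting intervals clear of no difference in both, each with 1 library per genotype. The share of all genes that meet this rule is not given here. The 10 genes were chosen partly on the contrast in gated nuclei, so nothing is read from that count. Mlxipl also had opposite signs, 0.36 and -0.55 on the log2 scale, but its interval in gated nuclei included no difference. For Acacb the log2 ratio was 1.56 in gated nuclei and -0.62 in myonuclei-like nuclei. Elovl6 had 7.87 in gated nuclei, a value that depends on the 0.5 UMI added because WT had 0 UMIs, and -1.03 in myonuclei-like nuclei, on 18 UMIs in PTRF KO and 21 in WT. In Y-marked myonuclei-like nuclei its log2 ratio was -0.44, with an interval (-2.26 to 1.83) that included no difference. Gpam had 2.28 in gated nuclei and -0.16 in myonuclei-like nuclei. The difference between the groups was not tested, since there are no replicate libraries.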

How the results depend on the processing

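Over 130 alternative values of single genes in gated nuclei, 123 stayed within the counting interval, 7 moved beyond it. The sign differed from the reported one for Dgat2 alone, under 4 of 13 alternatives. Over 90 values in myonuclei-like nuclei, 78 stayed within the interval, 12 moved beyond it and none changed sign. The number of genes past 2-fold higher in gated nuclei was 7 or 8 under all 14 alternatives. The log2 ratio of the sum, PTRF KO over WT, in gated nuclei (2.22) was 2.40 in Y-marked nuclei, 1.98 per gate UMI and 1.65 without Acaca. In myonuclei-like nuclei (-0.34) it was -0.46 without mitochondrial genes, Rn18s, Malat1 and Ttn in the total, -0.48 in Y-marked nuclei, -0.49 at clustering resolution 0.5, -0.28 with marker gates in place of clusters and -0.11 without Acacb. Gated over other nuclei gave in PTRF KO (3.36) 3.32 with at least 2 gate UMIs, 3.25 with at least 5, 3.24 without Pparg in the gate, 2.84 with the gate set after thinning to 500 UMIs, 3.26 with the reduced total, 3.56 in Y-marked nuclei, 3.46 without nuclei marked for both sexes and 2.73 without Acaca. In WT (0.95) it was 0.72 with at least 2 gate UMIs, 1.17 with the gate after thinning, 0.71 in Y-marked nuclei and 0.70 without Acaca. The co-detection difference between PTRF KO and WT was 49.2 percentage points in a random thinning drawn separately from that of the shares given above. It was 37.4 with no thinning. Xist-marked over Y-marked gated PTRF KO nuclei (0.14) gave 0.56 with at least 2 gate UMIs, 0.0044 with at least 5, 0.025 without Pparg, 0.028 in adipocyte-like clusters only, -0.12 with the gate after thinning and -0.11 without Acaca, so that sum has no settled sign; the cause was not tested. Scaling to gate UMIs, leaving out single genes, unnamed clusters counted as myonuclei, the adipocyte-cluster restriction and the Xist-marked comparison were chosen after seeing the data. No paired analysis was possible because each genotype has 1 library, and for the same reason no replicate could be left out. The 139644 UMIs of gated WT nuclei limit what can be seen there.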

Other observations

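Adipocyte genes outside lipogenesis did not all share the direction of the 10 genes in gated nuclei. Of 14 such genes outside the gate, all measured, 4 were past 2-fold higher in PTRF KO and 2 lower, with a median log2 ratio of 0.67. Among all 8535 genes, with 0 UMIs set at the floor, 11.4% were past 2-fold higher and 12.3% lower. Ghr, the growth hormone receptor, had a log2 ratio of -0.14, on 18767 UMIs in PTRF KO and 1483 in WT. Lipoprotein lipase, Lpl, which releases fatty acids from circulating triglyceride, was at 1587 CPM in PTRF KO and 559 CPM in WT (log2 1.498). The 2 lower genes were the hormone gene Lep, with 45 UMIs in PTRF KO (23.1 CPM) and 16 in WT (115 CPM; log2 -2.34), and Tshr, the thyrotropin receptor, at 269.7 CPM in PTRF KO and 1268 CPM in WT (log2 -2.24); Tshr was singled out after its value was seen.

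Of 10 genes linked to thermogenic fat, 8 were measured, 3 past 2-fold higher in gated PTRF KO nuclei and 0 lower when genes at 0 UMIs in WT were set at 3, with a median log2 ratio of 0.77 on that scale. By that rule 11.4% of all 8535 genes were higher and 12.3% lower. Ucp1, the uncoupling protein of brown fat, had 129 UMIs in PTRF KO (66.1 CPM) and 0 in WT, at least 3.08-fold higher. Ebf2 had a log2 ratio of 0.89, Ppara of 1.02 and Kcnk3 of -0.07.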
